A study of Arabidopsis thaliana with 12 samples.

Results

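High light was added to heat in leaves of Arabidopsis thaliana Col-0, the common laboratory accession, and the question is what the light changed in leaves that were also at 42 °C. The 3 libraries of leaves given both stresses (600 µmol m-2 s-1 and 42 °C, called the combination) were set against the 3 libraries of leaves given 42 °C alone (called heat), each after 7 h. All plants were 30 days old and had grown at 23 °C under 50 µmol m-2 s-1 with 12 h of light a day. The 3 control libraries and the 3 libraries of high light alone, 600 µmol m-2 s-1 for 7 h, were used to show what light did without heat, and they entered the filter on low counts and the test of the difference between light effects. No mutant, transgene or agent was part of any group. The light that the heat leaves received during the 7 h is not given in the labels. They do not state separate plants for the 3 libraries of 1 group either, so p-values rest on a spread between libraries that may be technical. The genes described are the 19309 of 32833 listed loci whose normalised count averaged at least 10 over the 12 libraries.

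Plants meet unfolding proteins with heat shock factors, transcription factors that switch on chaperone genes. The class A factors activate these genes, and HSFA2 is the member best known for holding the response up when stress goes on. Strong light is read by photoreceptors and by the chloroplast itself. The transcription factors HY5 and HYH carry much of that signal to genes for flavonols and for early light-induced proteins, which bind pigments in the thylakoid membrane. Leaves in strong light usually lower the transcripts of the antenna proteins that collect light.

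The libraries held 29814116 to 36938786 recovered reads. Heat and combination libraries varied more among themselves than the others did. The median SD of a gene over 3 libraries was 0.325 in heat and 0.333 in the combination on the log2 scale, against 0.155 in control and 0.185 in high light alone. Heat library 1 had the lowest and heat library 3 the highest share of reads of its group on the small heat shock protein, HSP100, HSP90 and HSP70, and co-chaperone lists, but not on the endoplasmic reticulum chaperones. Of the genes called higher in the combination 82.4% were higher in heat library 3 than in heat library 1, against 50.7% of all genes tested, and of the genes called lower 75.8% were lower in heat library 3. Their part in the results was not tested. Values are relative to the deposited size factors, which ran from 1.05 to 1.53 in the heat libraries and from 0.535 to 0.605 in the combination. With library totals as the scaling, the median difference of all genes was lower by 0.87 (log2), and each difference below is relative to the deposited scaling, under which the median gene stood at 0.0025.

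The reads of the combination were concentrated on few genes. The 10 genes with the most reads in the combination took 12.9, 18.6 and 16.0% of the reads in its 3 libraries and 1.37, 2.82 and 7.997% in the 3 heat libraries. Of these, 8 encode heat shock proteins of the HSP70, HSP90, HSP100 and small classes, and the others are the antenna gene CAB1 and RCA, the rubisco activase. HSP70 (AT3G12580) led with 1.80, 2.85 and 2.08% of reads in the combination, against 0.0796, 0.324 and 0.978% in heat. The number of genes that together held 50% of reads was 1019, 675 and 523 in the heat libraries and 218, 113 and 153 in the combination. The share of the 10 genes is a description, since they were chosen by their reads in the combination. For the number of genes that held 50% of reads the groups did not overlap, and an exact permutation test gave p = 0.1 (two-sided), the lowest that 3 against 3 libraries allow. The listed HSP100, HSP90 and HSP70 chaperones alone took 6.32, 12.0 and 10.2% in the combination, 0.982, 1.80 and 4.56% in the heat libraries and 0.393, 0.464 and 0.415% in control. That list does not hold every gene of these classes. Not all of the most-read HSP70, HSP90 and HSP100 genes above are in it.

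**Figure D1:**
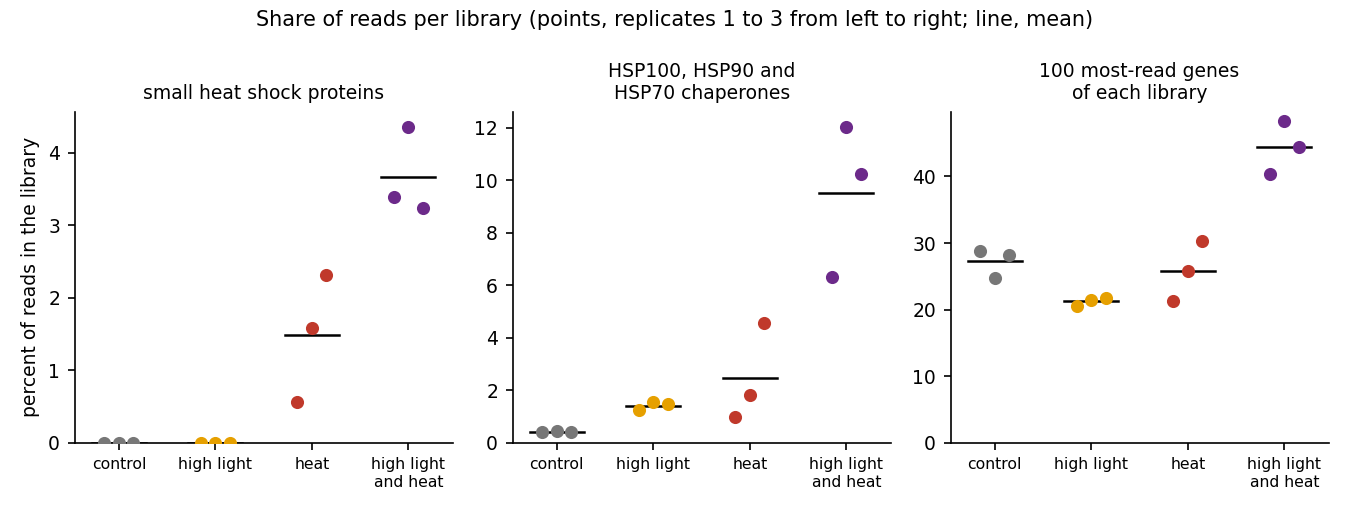
Percent of all recovered reads of a library (vertical axes, linear, from 0) held by the small heat shock protein list, by the HSP100, HSP90 and HSP70 list and by the 100 genes with the most reads in that library, for the 4 groups; each point is 1 library and each line the mean of 3. The combination libraries lie above the heat libraries in all 3 panels, and the 100 leading genes took 40.4, 48.4 and 44.5% in the combination against 21.3, 25.8 and 30.3% in heat. The HSP100, HSP90 and HSP70 list leaves out some genes of these classes.

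Adding high light to heat raised 3913 genes, 20.3% of those tested, and lowered 3639, 18.8%, at an adjusted p under 0.05 (limma, Benjamini-Hochberg). With library totals as the scaling the split was 1098 higher and 9140 lower. A difference of at least 1 on the log2 scale was seen for 2822 of the higher and 2787 of the lower genes, and a difference of at least 3 for 328 and 230. The 3 libraries of each group did not overlap, in either direction, for 54.1% of genes. The 10 largest rises with a gene symbol were HSFA7B, ELIP1, Hsp70b, PUM21, HSFA2, LEA3, HSFA7A, HSP101, PERK7 and FES1A, of which 6 are heat shock factors, chaperones or a chaperone helper. The 10 largest falls were TAS1A, MIR167d, VSP2, TAS1B, VSP1, PRR3, GRP7, MIR164b, MIR171c and MIR166b, of which 6 are precursors of small RNAs. Without heat library 2 the counts were 2348 higher and 1896 lower, and without combination library 2 they were 2101 and 2121.

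**Figure D2:**
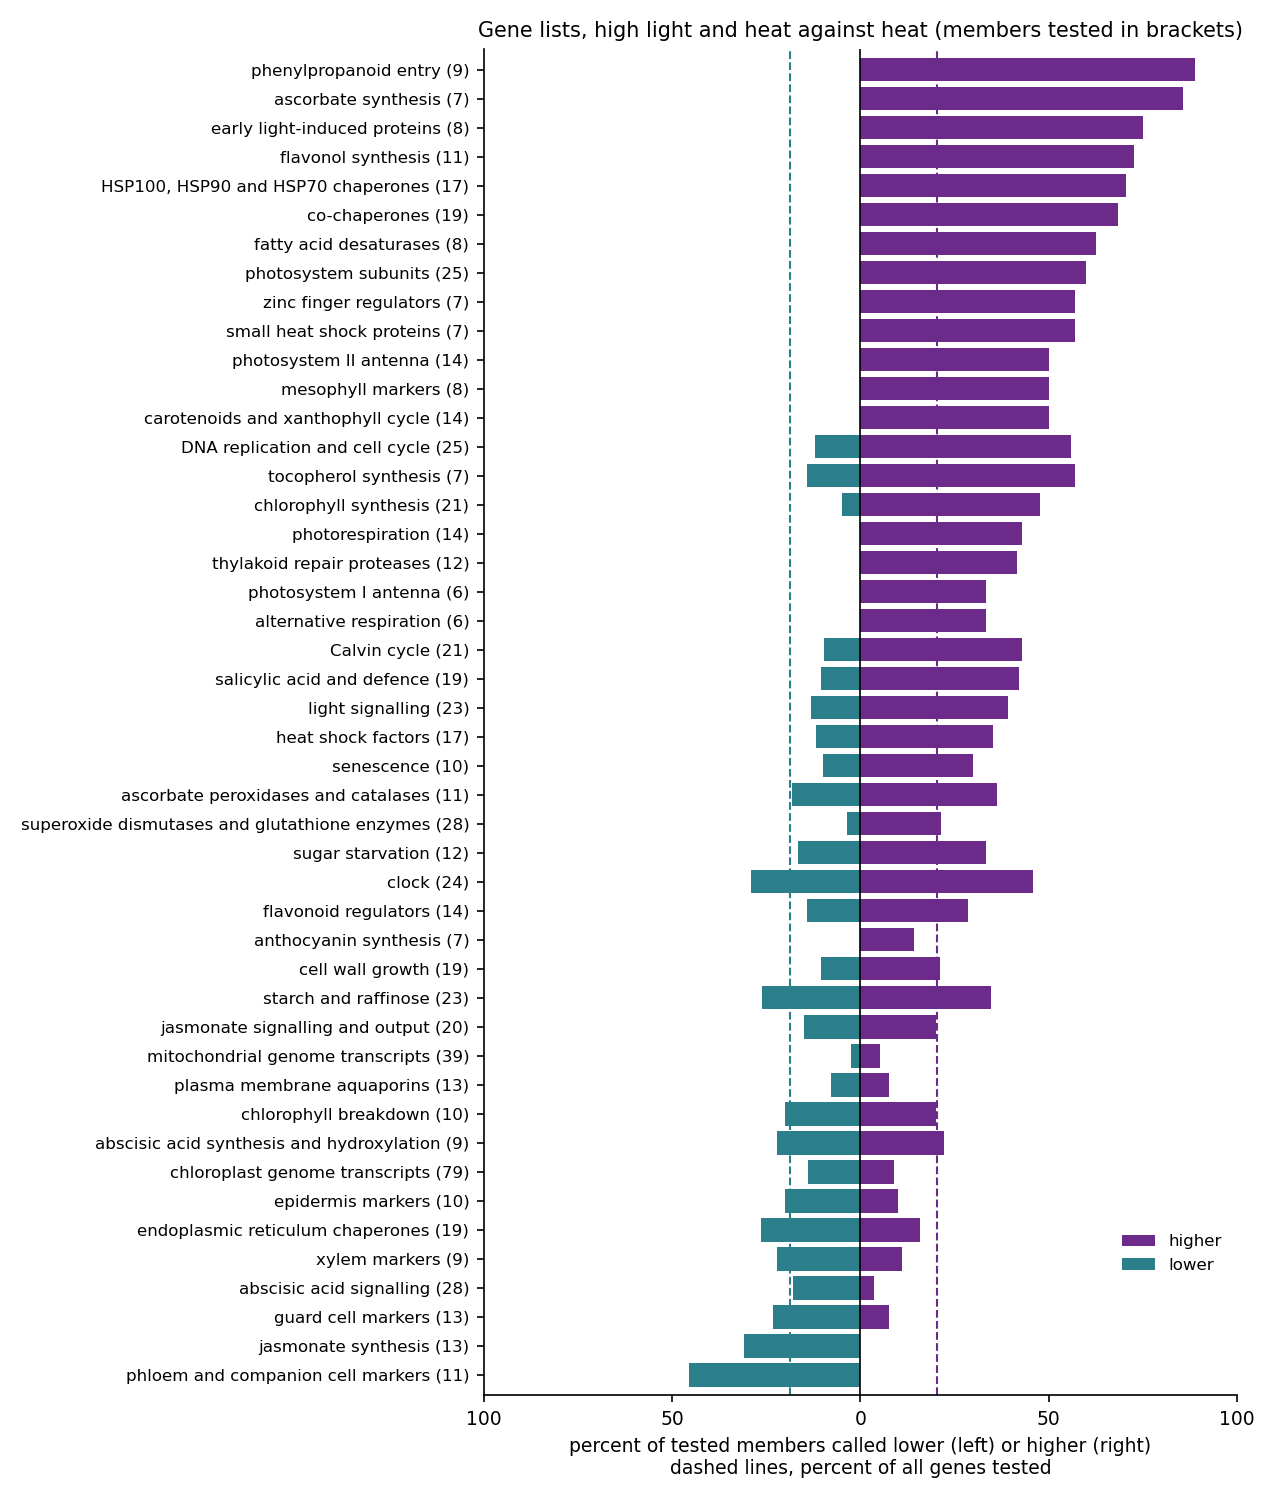
Percent of the tested members of each gene list called higher (bars to the right) or lower (bars to the left) in the combination than in heat, with the number tested in brackets; dashed lines mark 20.3% and 18.8%, the percents over all genes tested. The phenylpropanoid entry, ascorbate synthesis, early light-induced protein, flavonol, HSP100, HSP90 and HSP70, and co-chaperone lists have the longest bars to the right, and phloem markers the longest to the left; with library totals as the scaling fewer members rose and more fell in most lists, as the counts in brackets in the text show.

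Heat shock factors split by member. Of the list, 6 of 17 tested members rose and 2 fell, with a median log2 difference of 0.47 (with library totals as the scaling 6 rose and 7 fell). HSFA7B (AT3G63350) stood at 0.655, 187 and 672 normalised counts in the heat libraries, the first of which is 1 read, and at 5582, 24057 and 15300.0 in the combination. It was listed at 0 in all 3 control libraries. Its log2 difference was 7.74 ± 1.84 (SE), adjusted p = 0.0122, and 5.16 without heat library 1. Its close relative HSFA7A (AT3G51910) went from 98.2, 704 and 2569.8 in heat to 8058, 26187 and 31751 in the combination, so that every combination library exceeded every heat library (log2 difference 5.06 ± 1.03 (SE), adjusted p = 0.00714). HSFA2 (AT2G26150) reached 252386, 457851 and 427106 in the combination from 519.9, 9332 and 78546 in heat. The difference was 5.66 ± 1.46 (SE), adjusted p = 0.0165, was 3.76 without heat library 1, and did not pass without heat library 2 (5.84) and combination library 2 (5.5). The class B factors, several of which act as repressors, also rose: HSFB1 by 2.91, HSFB2A by 2.09 and HSFB2B by 2.06 on the log2 scale. The 2 members that fell were HSFA6B (-4.85), a factor known from abscisic acid responses, and HSFA4A (-0.92). HSFA3, which drives chaperone genes downstream of DREB2A, had 683, 5448 and 5962 in the heat libraries and 10829, 4902 and 3219 in the combination. Its groups overlapped and the difference of 0.98 ± 0.79 (SE), adjusted p = 0.345 did not pass. List members beyond the 2 with the largest difference were picked for naming after their values were seen.

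Promoters of both HSFA7 genes hold heat shock elements, the repeats of GAA and its complement to which heat shock factors bind. They are shown because these genes are among the largest rises and hold the element. Of the 10 largest rises with a symbol HSFA2 holds it too, and no such element was found in the same window of ELIP1, Hsp70b, PUM21, LEA3, HSP101, PERK7 and FES1A, nor in that of HSP17.6A and HSP17.6II. The windows of HSFA2, Hsp70b, PUM21, HSP101, PERK7, FES1A and HSP17.6A overlap another locus, and those of HSFA7A and HSFA7B do not. Only the exact pattern in this window was searched, so a gene without a match may hold elements elsewhere or of another form. The 250 bases before each transcript start were read from the RefSeq TAIR10.1 genome, 5′ to 3′ on the gene's strand, with the element (units GAA, TTC and GAA in a row with any 2 bases between units, or the same on the other strand) in capitals. The submitters name TAIR10, and their files hold no coordinates.
HSFA7A (chr3:19264891-19265140, plus strand): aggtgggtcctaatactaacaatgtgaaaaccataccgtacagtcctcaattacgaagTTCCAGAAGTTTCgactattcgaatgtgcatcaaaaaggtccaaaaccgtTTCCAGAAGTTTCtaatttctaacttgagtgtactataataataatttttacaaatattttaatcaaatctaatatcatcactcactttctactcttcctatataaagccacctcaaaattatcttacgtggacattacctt
HSFA7B (chr3:23398986-23399235, plus strand): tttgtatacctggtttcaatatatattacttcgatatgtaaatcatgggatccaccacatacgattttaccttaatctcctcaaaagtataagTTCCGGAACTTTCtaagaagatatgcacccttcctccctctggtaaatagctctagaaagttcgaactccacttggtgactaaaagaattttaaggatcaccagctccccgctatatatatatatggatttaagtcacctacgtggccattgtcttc
Such an element was found in 0.448% of the promoters of all genes tested, in 0.82% for genes called higher, and in 2.74% for those higher by at least 3. That last share is 9 of 328 promoters, with those of HSFA7A, HSFA7B and HSFA2 among them. For genes called lower the share was 0.303%, and for those lower by at least 3 it was 0.441%, 1 of 227. A match of letters describes the sequence and shows no binding.

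Chaperones of the cytosol, chloroplast and mitochondria are described by class. Among small heat shock proteins, which hold unfolding proteins in solution, 4 of 7 tested members rose and 0 fell, with a median log2 difference of 3.16 (with library totals as the scaling 4 rose and 0 fell). HSP17.6A (AT5G12030) went from 2497, 20903 and 57668 normalised counts in heat to 230464, 530859 and 351888 in the combination (log2 difference 4.6 ± 0.99 (SE), adjusted p = 0.00874). Control libraries held 1.69, 56.8 and 1.71. HSP17.6II, its neighbour and near relative, differed by 3.99 ± 0.96 (SE), adjusted p = 0.0128, and reads of such near copies may be shared between them. The chloroplast member HSP21 had 7186, 54293 and 39924 in the heat libraries and 71687, 149383 and 71921 in the combination. Those groups did not overlap, yet its difference of 1.88 ± 0.72 (SE), adjusted p = 0.0678 did not pass, and it was 0.98 without heat library 1. A further 28 tested loci whose product is HSP20-like, listed after the data were seen, held 15 that rose and 2 that fell. The member of these with the most reads in the combination was AT1G53540, with 1.58, 1.75 and 1.44% of reads there and 0.0336, 0.327 and 0.918% in heat. All of these loci together took 5.81, 7.43 and 5.99% in the combination and 0.503, 1.53 and 3.28% in heat.

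In the list of HSP100, HSP90 and HSP70 chaperones, 12 of 17 tested members rose and 0 fell, with a median log2 difference of 2.79 (with library totals as the scaling 11 rose and 2 fell). The count of rises was 7 without heat library 2 and 7 without combination library 2. The list leaves out some genes of these classes, so the counts describe its 17 members only. HSP101 (AT1G74310), the disaggregase needed for acquired heat tolerance, stood at 2325, 36624 and 231174 in the heat libraries and 463511, 1461293 and 997091 in the combination. The log2 difference was 5.02 ± 1.41 (SE), adjusted p = 0.0231, was 3.25 without heat library 1, and did not pass without heat library 2 (5.24), combination library 2 (4.65) and combination library 3 (4.93). Hsp70b (AT1G16030), a heat-induced cytosolic HSP70, rose from 561, 38834 and 360302 to 751378, 1656873 and 1145525. Its difference of 5.82 ± 1.91 (SE), adjusted p = 0.0398 was 3.25 without heat library 1 and was lost without heat library 2 (6.31), combination library 1 (6.11), combination library 2 (5.54) and combination library 3 (5.81). The chloroplast HSP90 and HSP60-type members did not follow: HSP90.5 stood at -0.48 and CPN60B at -0.63, and neither passed. Mitochondrial CLPB4 (2.79) and chloroplast CLPB3 (3.49) both rose.

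Among co-chaperones, 13 of 19 tested members rose and 0 fell, with a median log2 difference of 1.92 (with library totals as the scaling 11 rose and 3 fell). The number that rose was 7 without combination library 2. FES1A (AT3G09350), which releases nucleotide from HSP70, stood at 825, 7155 and 22923 in the heat libraries and 95079, 283619 and 161691 in the combination, a difference of 4.99 ± 1.03 (SE), adjusted p = 0.00758. MBF1C (AT3G24500), a transcriptional coactivator that acts in heat tolerance, rose from 1752, 9304 and 29072 to 106619, 198805 and 150206 (4.24 ± 0.86 (SE), adjusted p = 0.00711). BAG6, a calmodulin-binding member of the BAG family, differed by 4.62 ± 1.28 (SE), adjusted p = 0.0216. That difference was 3.07 without heat library 1 and was lost without heat library 2 (4.73), combination library 2 (4.26) and combination library 3 (4.31). Endoplasmic reticulum chaperones did not move together: 3 of 19 tested members rose and 5 fell, with a median log2 difference of -0.04 (with library totals as the scaling 2 rose and 11 fell). The number that rose was 1 without heat library 1, 1 without heat library 2, 5 without heat library 3, 1 without combination library 1 and 1 without combination library 2. ERDJ3A, a J-domain protein, rose by 2.67 ± 0.51 (SE), adjusted p = 0.00609. BIP3, the stress-induced HSP70 of that compartment, stood at 5.89, 17.1 and 195 in the heat libraries and 473, 390.5 and 234 in the combination (3.6 ± 1.03 (SE), adjusted p = 0.024), and was not called without heat library 1 (2.57), heat library 2 (3.26), combination library 1 (3.39) and combination library 2 (3.53). The protein disulfide isomerase PDIL1-2 (-1.99), the calreticulin CRT1a (-1.48) and the stress sensors IRE1A (-1.3) and IRE1B (-1.2) fell.

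**Figure D3:**
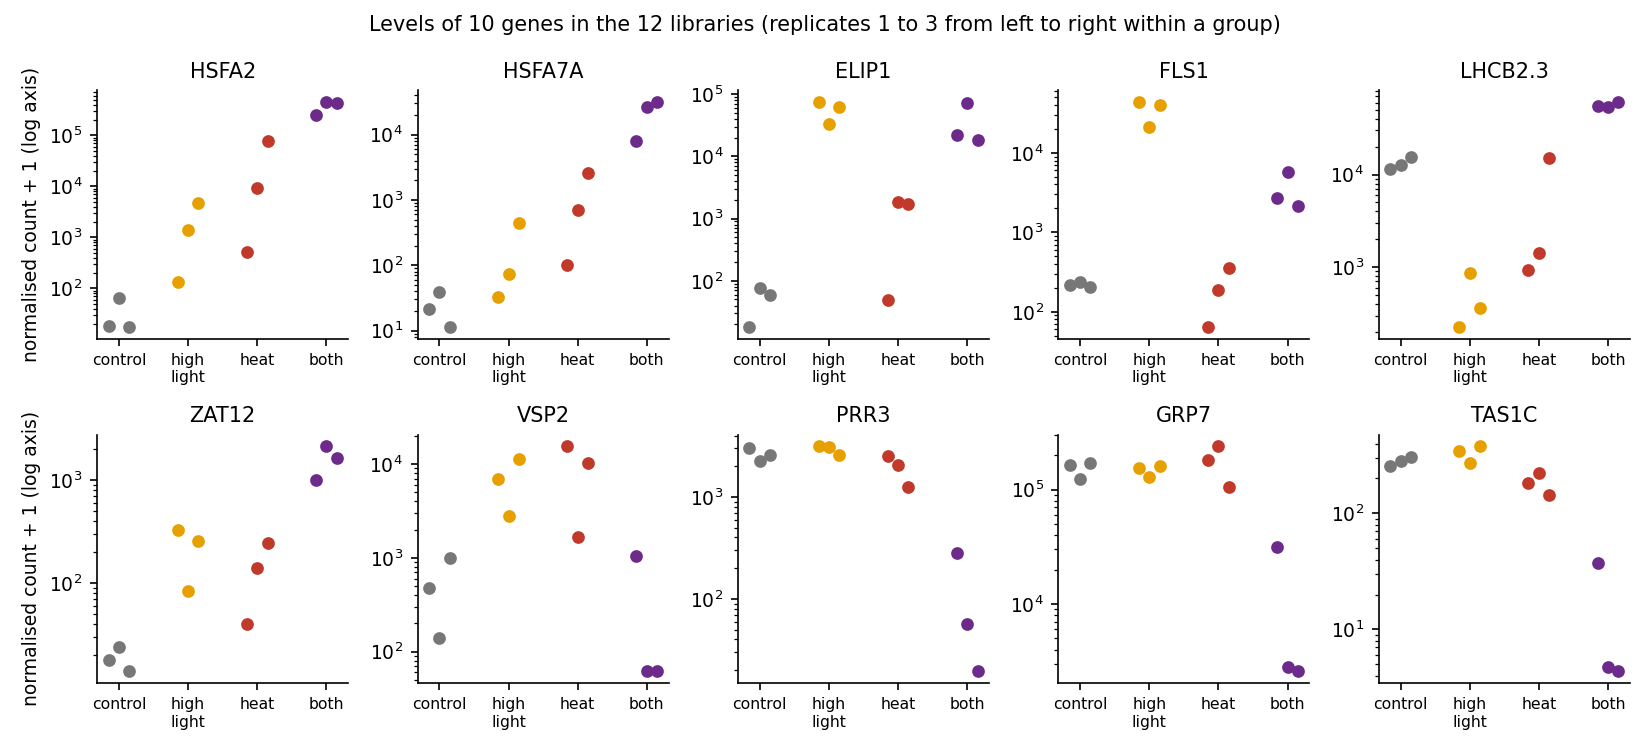
Normalised count + 1 (log axes) of 10 genes in the 12 libraries, in the order control, high light, heat and both stresses, with replicates 1 to 3 from left to right in each group; each point is 1 library. HSFA2, HSFA7A, ELIP1, FLS1, LHCB2.3 and ZAT12 lie higher in all 3 combination libraries than in any heat library, and VSP2, PRR3, GRP7 and TAS1C lie lower in all 3.

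Light signalling genes, the photoreceptors and factors that read and pass on light, moved in both directions. Of the list, 9 of 23 tested members rose and 3 fell, with a median log2 difference of 0.66 (with library totals as the scaling 7 rose and 6 fell). HYH (AT3G17609) stood at 47.8, 71.9 and 213 in the heat libraries and 827, 1248 and 1099 in the combination, a difference of 3.52 ± 0.49 (SE), adjusted p = 0.00338. Its range in the combination lay near that in high light alone, 1309.7, 979 and 1326. HY5 rose by 3.35, the repressors of ultraviolet signalling RUP1 and RUP2 by 3.0 and 3.45, and the blue light receptor CRY3 by 3.48. BBX25 (AT2G31380), a B-box partner of HY5, rose from 119.8, 161 and 1260.1 to 3563, 5545 and 5126 (4.0 ± 0.75 (SE), adjusted p = 0.00563). The members that fell were CRY2 (-1.37), PIF3 (-1.81) and BBX21 (-1.12). PHYB (0.58), UVR8 (-0.44) and PIF4 (0.15) did not pass.

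ELIP1, an early light-induced protein, showed the second largest rise among genes with a symbol. Of this list, 6 of 8 tested members rose and 0 fell, with a median log2 difference of 1.51 (with library totals as the scaling 4 rose and 1 fell). ELIP1 (AT3G22840) had 47.8, 1849 and 1709 normalised counts in the heat libraries and 22004, 72677 and 18569 in the combination (log2 difference 5.85 ± 1.25 (SE), adjusted p = 0.00853). Without heat it went from 16.9, 76.5 and 57.2 in control to 75557, 33708 and 63100.4 in high light. ELIP2 (AT4G14690) reached 896, 3239 and 693 in the combination from 5.89, 144 and 152 in heat. Its rise of 4.56 ± 1.12 (SE), adjusted p = 0.0138 did not pass without combination library 2 (3.88), and its level stayed below the 21269, 3424 and 14771 of high light alone. The 1-helix proteins OHP1 (1.99) and OHP2 (1.73) also rose.

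Light in hot leaves raised most genes of the flavonol list. Of the anthocyanin list 1 of 7 tested members rose, a smaller share than the 20.3% over all genes tested. Of the entry steps of phenylpropanoid synthesis, which feed both, 8 of 9 tested members rose and 0 fell, with a median log2 difference of 2.5 (with library totals as the scaling 5 rose and 0 fell). The rises numbered 5 without heat library 2 and 5 without combination library 2. PAL1 (AT2G37040), the ammonia-lyase that opens the pathway, went from 765, 621 and 4285 to 11955, 16577 and 14566 (3.49 ± 0.63 (SE), adjusted p = 0.00507). 4CL3, the ligase isoform tied to flavonoids, rose by 3.63 ± 0.48 (SE), adjusted p = 0.00329. Of the flavonol list, 8 of 11 tested members rose and 0 fell, with a median log2 difference of 2.03 (with library totals as the scaling 5 rose and 0 fell). FLS1 (AT5G08640), the flavonol synthase, stood at 62.9, 188 and 350.1 in the heat libraries and 2688, 5739 and 2128 in the combination, a difference of 4.31 ± 0.59 (SE), adjusted p = 0.00338. High light alone gave 43962, 21239 and 39532. TT4 (AT5G13930), the chalcone synthase at the first committed step, stood at 2471, 5865 and 4426 in the heat libraries and 15788, 27535 and 13644 in the combination. Its rise of 2.18 ± 0.38 (SE), adjusted p = 0.0047 compares with 7.66 ± 0.29 (SE), adjusted p = 1.35e-05 without heat. TT7, the flavonoid 3′-hydroxylase, was 1 of the 3 members that did not pass, with 76.0, 42.2 and 37.2 in heat, 52.9, 31.8 and 21.7 in the combination and 21101, 4564 and 13218 in high light alone. The difference on adding light to heat was -0.55 ± 0.47 (SE), adjusted p = 0.368, with overlapping groups.

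Of the anthocyanin list, 1 of 7 tested members rose and 0 fell, with a median log2 difference of 0.46 (with library totals as the scaling 0 rose and 1 fell). The call was that of DFR, the reductase that opens the anthocyanin branch, with 113, 13.5 and 33.4 in the heat libraries and 117, 355 and 219 in the combination (2.45 ± 0.72 (SE), adjusted p = 0.0263). It did not pass without heat library 2 (1.75), heat library 3 (2.37), combination library 2 (2.07) and combination library 3 (2.42), and the number that rose was 3 without heat library 1, 0 without heat library 2, 0 without heat library 3, 2 without combination library 1, 0 without combination library 2 and 0 without combination library 3. All 7 members had risen in high light alone, with a median log2 difference of 5.68, against 0.46 in hot leaves. As a share of reads the anthocyanin list took 0.0101, 0.00991 and 0.00794% in the heat libraries and 0.00543, 0.00528 and 0.0037% in the combination. Of the regulators of both branches, 4 of 14 tested members rose and 2 fell, with a median log2 difference of 0.95 (with library totals as the scaling 1 rose and 2 fell), and the falls numbered 0 without heat library 1, 0 without heat library 2, 1 without combination library 1, 1 without combination library 2 and 0 without combination library 3. MYB12, an activator of flavonol genes, stood at 1.31, 2.69 and 2.86 in the heat libraries and 18.19, 37.4 and 21.7 in the combination (3.0 ± 0.56 (SE), adjusted p = 0.00544). PAP1 (AT1G56650), the MYB activator of anthocyanin genes, went down from 695, 403 and 309 to 266, 129 and 63.6. Its difference of -1.76 ± 0.51 (SE), adjusted p = 0.026 did not pass without heat library 1 (-1.44), heat library 2 (-1.83), combination library 2 (-1.76) and combination library 3 (-1.25). In high light alone PAP1 stood at 3488, 2693 and 3362 against 71.8, 96.9 and 106 in control.

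Many photosynthesis genes rose under light in hot leaves. Of the photosystem II antenna list, 7 of 14 tested members rose and 0 fell, with a median log2 difference of 1.33 (with library totals as the scaling 5 rose and 0 fell). The number of rises was 3 without heat library 2, 4 without combination library 1, 1 without combination library 2 and 3 without combination library 3. In high light alone 12 of the same 14 fell and 2 rose. LHCB2.3 (AT3G27690) had 936, 1431 and 14988 in the heat libraries and 54745, 54099 and 61192 in the combination, a difference of 4.38 ± 0.87 (SE), adjusted p = 0.00664. Its level in the combination lay above control (11563, 12705 and 15475) and far above high light alone (223, 857 and 360.4). LHCB1.1 (AT1G29920, also CAB2) stood at 52483, 101476 and 174249 in the heat libraries and 402253, 286554 and 287996 in the combination. Its rise of 1.72 ± 0.59 (SE), adjusted p = 0.0462 was lost without heat library 2 (1.75), combination library 1 (1.56), combination library 2 (1.8) and combination library 3 (1.8). Antenna genes have near-identical copies, the sources used here do not say how shared reads were counted, and values of single copies are uncertain. As a share of all reads the list took 2.88, 3.83 and 4.38% in the heat libraries and 5.85, 3.82 and 4.37% in the combination, and on that scale the groups overlapped.

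Of the photosystem subunits, 15 of 25 tested members rose and 0 fell, with a median log2 difference of 1.11 (with library totals as the scaling 3 rose and 0 fell). The number that rose was 8 without heat library 2, 7 without combination library 1, 5 without combination library 2 and 8 without combination library 3. PSB28, an assembly factor of photosystem II, rose from 1925, 2429 and 4897 to 18921, 20268 and 15103 (2.66 ± 0.35 (SE), adjusted p = 0.00329), and PSAN, a lumenal subunit of photosystem I, rose by 1.83 ± 0.33 (SE), adjusted p = 0.00511. In high light alone 23 of the 25 fell. Of the photosystem I antenna, 2 of 6 rose, LHCA5 by 1.78 ± 0.24 (SE), adjusted p = 0.00329 and LHCA6 by 0.89 ± 0.29 (SE), adjusted p = 0.038. LHCA6 was not called without heat library 1 (0.58), combination library 1 (0.8), combination library 2 (0.93) and combination library 3 (0.95). Of the thylakoid proteases and their relatives that repair photosystem II, 5 of 12 tested members rose and 0 fell, with a median log2 difference of 0.61 (with library totals as the scaling 1 rose and 3 fell), and the rises numbered 3 without heat library 1, 3 without combination library 1, 1 without combination library 2 and 2 without combination library 3. EGY3, a heat-responsive chloroplast protein of the EGY family, rose from 1300.3, 7027 and 19321 to 58634, 112552 and 80530.3 (3.85 ± 0.82 (SE), adjusted p = 0.00852), while high light alone held 97.1, 80.3 and 85.9. Of chlorophyll synthesis, 10 of 21 tested members rose and 1 fell, with a median log2 difference of 1.06 (with library totals as the scaling 2 rose and 2 fell). The fall was that of PORB, a light-dependent protochlorophyllide reductase, from 16183, 21267 and 18428 to 4799.6, 2911 and 2707 (-2.46 ± 0.27 (SE), adjusted p = 0.00329). PORB had fallen in high light alone too (-2.58 ± 0.16 (SE), adjusted p = 4.38e-05). In the Calvin cycle, 9 of 21 tested members rose and 2 fell, with a median log2 difference of 0.94 (with library totals as the scaling 2 rose and 4 fell), and the rises numbered 4 without heat library 2, 5 without combination library 1, 3 without combination library 2 and 5 without combination library 3. SBPASE, the bisphosphatase of the regeneration phase, stood at 10509, 17234 and 29438 in the heat libraries and 61828, 64984 and 64006 in the combination (1.86 ± 0.4 (SE), adjusted p = 0.00851).

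Genes for protective compounds of the chloroplast rose in part. Of the carotenoid list, 7 of 14 tested members rose and 0 fell, with a median log2 difference of 0.66 (with library totals as the scaling 2 rose and 4 fell), and the rises numbered 2 without heat library 2, 4 without combination library 1, 2 without combination library 2 and 3 without combination library 3. BETA-OHASE 2 (AT5G52570), a carotene hydroxylase that makes zeaxanthin, stood at 576, 834 and 2007 in the heat libraries and 6003, 8478 and 6066 in the combination (2.77 ± 0.41 (SE), adjusted p = 0.00351). In ascorbate synthesis, 6 of 7 tested members rose and 0 fell, with a median log2 difference of 0.97 (with library totals as the scaling 2 rose and 1 fell), and 3 rose without heat library 2. VTC2, the phosphorylase at its controlled step, rose by 1.79 ± 0.4 (SE), adjusted p = 0.00976. In tocopherol synthesis, 4 of 7 tested members rose and 1 fell, with a median log2 difference of 1.83 (with library totals as the scaling 3 rose and 1 fell). TAT7, a tyrosine aminotransferase that feeds it, rose by 2.39 ± 0.39 (SE), adjusted p = 0.00401. The enzymes that remove hydrogen peroxide gave a mixed picture: 4 of 11 tested members rose and 2 fell, with a median log2 difference of 0.66 (with library totals as the scaling 1 rose and 2 fell). APX2 (AT3G09640), the heat- and light-induced cytosolic peroxidase, stood at 1108, 3361 and 4025 in the heat libraries and 6994, 21170.5 and 6692 in the combination. Its rise of 2.01 ± 0.57 (SE), adjusted p = 0.023 did not pass without heat library 1 (1.44) and combination library 2 (1.47). APX1, the main cytosolic peroxidase, had 16411, 22219 and 27455 in the heat libraries and 33996, 42754 and 30125 in the combination, and its difference of 0.71 ± 0.31 (SE), adjusted p = 0.102 did not pass, whereas high light alone raised it by 2.3 ± 0.16 (SE), adjusted p = 6.42e-05. The number that rose was 2 without heat library 1, 2 without heat library 2, 2 without combination library 1, 1 without combination library 2 and 2 without combination library 3. Of superoxide dismutases and glutathione enzymes, 6 of 28 tested members rose and 1 fell, with a median log2 difference of 0.63. The share that rose is near the 20.3% over all genes tested, and the share that fell is below the 18.8%. Among them GR1, a cytosolic glutathione reductase, rose by 2.57 ± 0.51 (SE), adjusted p = 0.00682. This list took 0.478, 0.443 and 0.437% of reads in the heat libraries and 0.387, 0.306 and 0.309% in the combination. 

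Of zinc finger regulators of the oxidative stress response, 4 of 7 tested members rose and 0 fell, with a median log2 difference of 2.67 (with library totals as the scaling 4 rose and 0 fell). ZAT12 (AT5G59820) stood at 38.6, 138 and 246 in the heat libraries and 1005, 2158 and 1635 in the combination, a difference of 3.78 ± 0.6 (SE), adjusted p = 0.00386. ZAT10, a repressor induced by light and by other stresses, rose from 230.5, 283 and 673 to 2409, 2735 and 1712 (2.66 ± 0.39 (SE), adjusted p = 0.00347). ZAT6 rose by 3.86 ± 0.6 (SE), adjusted p = 0.0037. In each of these genes the lowest combination library exceeded the highest heat library.

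Clock genes moved in both directions. Of the list, 11 of 24 tested members rose and 7 fell, with a median log2 difference of 0.53 (with library totals as the scaling 8 rose and 11 fell), against 0 that rose and 9 that fell in high light alone. The rises were the morning factors CCA1 (2.67), LHY (3.75), RVE1 (4.56), RVE4 (0.87) and RVE8 (3.52), their coactivators LNK2 (2.13), LNK3 (3.25) and LNK4 (3.18), PRR9 (2.7) and the F-box proteins ZTL (0.8) and LKP2 (1.22). The falls were the evening genes TOC1 (-3.58), PRR3 (-4.78), GI (-1.19), FKF1 (-1.65), ELF3 (-2.18), ELF4 (-4.25) and BOA (-3.17). PRR3 (AT5G60100), a partner of TOC1, stood at 2525, 2064 and 1251 in the heat libraries and 283, 56.0 and 18.4 in the combination, and at 2984, 2239 and 2595 in control. Its difference was -4.78 ± 0.81 (SE), adjusted p = 0.00434, and its difference in high light alone was 0.17 ± 0.13 (SE), adjusted p = 0.315. RVE1, a morning MYB factor that links the clock to auxin, stood at 12.4, 33.2 and 669 in the heat libraries and 904, 1848 and 2406 in the combination. That rise of 4.56 ± 1.2 (SE), adjusted p = 0.0178 was lost without heat library 2 (4.07), combination library 2 (4.45) and combination library 3 (4.26). The count of rises was 6 without heat library 2, 5 without combination library 2 and 6 without combination library 3. The labels give no time of day for the harvest.

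GRP7 (AT2G21660), an RNA-binding protein whose transcript cycles with an evening peak, stood at 181595, 239833 and 105683 in the heat libraries and 31159, 2832 and 2571 in the combination. Control libraries held 164285, 123054 and 170677 and high light libraries 153112, 129779 and 161689. The difference was -4.77 ± 0.87 (SE), adjusted p = 0.00523, with combination library 1 well above the other 2. Its promoter, shown because 3 evening elements stand in 250 bases, follows with the element (AAAATATCT, either strand) in capitals, from the same genome.
GRP7 (chr2:9266558-9266807, minus strand): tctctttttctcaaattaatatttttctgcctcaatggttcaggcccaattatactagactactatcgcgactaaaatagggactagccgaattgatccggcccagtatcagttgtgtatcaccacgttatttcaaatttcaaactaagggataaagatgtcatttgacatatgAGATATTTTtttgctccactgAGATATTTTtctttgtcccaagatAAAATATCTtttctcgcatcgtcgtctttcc
An evening element was found in 2.50% of promoters of all genes tested, 3.28% for genes called lower, 1.49% for genes called higher and 9.25% for those lower by at least 3. The share for genes higher by at least 3 was 2.44%. Of the 10 largest falls with a symbol only GRP7 holds the element in this window. None was found in TAS1A, MIR167d, VSP2, TAS1B, VSP1, PRR3, MIR164b, MIR171c and MIR166b. Other named genes hold 1 each: FLS1, LHCA5 and ZAT12, which rose, and PORB and the chlorophyll breakdown gene NYC1, which fell. For comparison, the G-box CACGTG, read by HY5 and other factors, was found in 7.47% of all these promoters, 7.74% for genes called higher and 11.3% for genes higher by at least 3. The share was 6.76% for genes called lower and 7.05% for those lower by at least 3. ELIP1 holds a G-box and is shown with it in capitals, while ELIP2, HYH and FLS1 hold none in this window.
ELIP1 (chr3:8085670-8085919, minus strand): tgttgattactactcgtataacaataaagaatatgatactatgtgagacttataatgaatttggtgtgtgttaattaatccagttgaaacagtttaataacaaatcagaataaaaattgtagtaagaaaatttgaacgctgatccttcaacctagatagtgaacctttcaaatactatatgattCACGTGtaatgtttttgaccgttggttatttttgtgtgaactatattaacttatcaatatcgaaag

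The storage proteins VSP1 and VSP2, jasmonate markers, fell with light in hot leaves. VSP2 (AT5G24770) stood at 15552, 1681 and 10135 in the heat libraries and 1033, 61.7 and 60.2 in the combination. Its difference was -5.34 ± 1.14 (SE), adjusted p = 0.00851. In high light alone it had risen, from 476, 138 and 1004 in control to 6930.5, 2795 and 11401. VSP1, its near copy, fell, with a difference of -5.02 ± 0.99 (SE), adjusted p = 0.00652. Of jasmonate synthesis, 0 of 13 tested members rose and 4 fell, with a median log2 difference of -0.05 (with library totals as the scaling 0 rose and 6 fell), and the falls numbered 2 without heat library 1, 1 without combination library 2 and 1 without combination library 3. AOC2, an allene oxide cyclase, fell from 8163, 7396 and 5476 to 2634, 613 and 768 (-2.69 ± 0.49 (SE), adjusted p = 0.00514). LOX2, the lipoxygenase that starts the pathway in wounded leaves, fell, with a difference of -1.64 ± 0.49 (SE), adjusted p = 0.0285. This was -1.03 without heat library 1 and did not pass without combination library 2 (-1.4) and combination library 3 (-1.72). AOS, the next enzyme, had overlapping groups (0.44 ± 0.28 (SE), adjusted p = 0.236), as had the repressor JAZ10 (1.07 ± 0.6 (SE), adjusted p = 0.181). Among signalling and output genes, 4 of 20 tested members rose and 3 fell, with a median log2 difference of 0.47 (with library totals as the scaling 1 rose and 6 fell), and the rises numbered 2 without heat library 1, 1 without heat library 2, 2 without heat library 3, 2 without combination library 1, 1 without combination library 2 and 1 without combination library 3. Over all genes tested 20.3% rose and 18.8% fell, near the shares of that list.

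Several genes of salicylic acid signalling rose from the low levels of hot leaves. Of this list, 8 of 19 tested members rose and 2 fell, with a median log2 difference of 0.79 (with library totals as the scaling 5 rose and 4 fell), while 15 of 19 fell and 1 rose in high light alone. PCC1 (AT3G22231), a membrane protein induced by pathogens, stood at 49.1, 79.0 and 185 in the heat libraries and 2468, 2920.0 and 819.8 in the combination (4.32 ± 0.57 (SE), adjusted p = 0.00329). Control held 22872, 18255 and 23251, above every library of the combination. LURP1, a defence gene, rose by 4.01 ± 0.65 (SE), adjusted p = 0.00399. The synthesis genes ICS1 (1.71) and PBS3 (3.64) and the regulators CBP60G (1.86), SARD1 (2.5), WRKY70 (1.86) and EDS1 (1.2) rose, and the receptors NPR3 (-0.93) and NPR4 (-2.14) fell. The output gene PR1 stood at -0.88 and did not pass. The number of rises was 5 without heat library 2 and 5 without combination library 2.

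Abscisic acid genes were called at shares near or below those over all genes tested, 20.3% higher and 18.8% lower. In the hormone's synthesis and hydroxylation, 2 of 9 tested members rose and 2 fell, with a median log2 difference of -0.75 (with library totals as the scaling 0 rose and 5 fell). There the rises numbered 1 without heat library 2, 1 without combination library 1 and 1 without combination library 2, and the falls numbered 0 without heat library 2 and 0 without combination library 2. In signalling, 1 of 28 tested members rose and 5 fell, with a median log2 difference of -0.46 (with library totals as the scaling 1 rose and 15 fell), and the falls numbered 3 without heat library 1, 2 without heat library 2, 10 without combination library 1, 3 without combination library 2 and 3 without combination library 3. ABI5, a bZIP activator of late-embryo genes, stood at 66.1, 59.3 and 49.6 in the heat libraries and 14.9, 0 and 5.02 in the combination (-3.69 ± 0.9 (SE), adjusted p = 0.0135), and was not called without heat library 2 (-3.67). DREB2A (AT5G05410), the dehydration- and heat-responsive activator, was the member that rose, from 1184, 3297 and 7149 to 22183, 40084 and 32847 (3.34 ± 0.57 (SE), adjusted p = 0.00444). NCED3, the controlled step of the hormone's synthesis, overlapped between groups (0.58 ± 0.51 (SE), adjusted p = 0.39) and was called without heat library 1 (1.18). RD29A (-0.82), RAB18 (0.02) and COR15A (-0.74), widely used output genes, did not pass.

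Starch and raffinose genes went both ways: 8 of 23 tested members rose and 6 fell, with a median log2 difference of 0.02 (with library totals as the scaling 6 rose and 13 fell). GOLS1 (AT2G47180), the galactinol synthase that opens raffinose synthesis and is a known heat shock factor target, stood at 2439, 6599 and 18665 in the heat libraries and 59274, 162699.9 and 86046 in the combination (3.81 ± 0.69 (SE), adjusted p = 0.00509). The beta-amylase relative BAM9 rose from 137, 134 and 2128 to 4044, 6976 and 6558 (4.06 ± 0.92 (SE), adjusted p = 0.0105). BAM5 (AT4G15210), a beta-amylase of the phloem, fell from 501, 225 and 121 to 13.2, 22.4 and 13.4 (-3.83 ± 0.53 (SE), adjusted p = 0.00338), and in high light alone it had reached 1348, 775 and 2525. The other members that fell were ISA3 (-3.02), SEX1 (-2.31), DPE1 (-2.17) and SEX4 (-1.5), which act in starch breakdown, and the starch synthase SS4 (-1.38), and the stress-linked amylase BAM1 rose by 3.05. In proline metabolism 3 of 5 tested members rose and 1 fell, with a median log2 difference of 0.68. ERD5, the dehydrogenase that breaks proline down, rose by 3.29 ± 0.69 (SE), adjusted p = 0.008. P5CR, the last enzyme of its synthesis, fell, with a difference of -1.39 ± 0.26 (SE), adjusted p = 0.00532. These are the 2 called members with the largest difference and do not stand for the list. DIN6 (ASN1), an asparagine synthetase that responds to low sugar, stood at 66.1, 52.1 and 272 in the heat libraries and 574, 579 and 1092 in the combination (2.85 ± 0.58 (SE), adjusted p = 0.00731).

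More DNA replication and cell cycle genes rose than fell. Of the list, 14 of 25 tested members rose and 3 fell, with a median log2 difference of 1.55 (with library totals as the scaling 7 rose and 3 fell). PRL (AT4G02060), the MCM7 subunit of the replicative helicase, stood at 161, 153 and 189.8 in the heat libraries and 810.1, 1481 and 1303 in the combination (2.79 ± 0.27 (SE), adjusted p = 0.00329). Its control levels were 599, 778 and 727. The other helicase subunits MCM2 to MCM6 rose by between 1.27 and 2.03, and the ribonucleotide reductase subunits RNR1 and TSO2 by 2.29 and 2.65. CYCB1;2, a mitotic cyclin, rose by 2.96 ± 0.84 (SE), adjusted p = 0.0239 and lost its call without heat library 2 (2.02), combination library 2 (2.79) and combination library 3 (2.59). The D-type cyclins CYCD3;1 (-1.48) and CYCD3;3 (-1.66) fell, as did PCNA2 (-1.09).

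Markers of leaf cell types were read as a check of the tissue. All 5 lists were present in every library. Of mesophyll markers 4 of 8 tested members rose and 0 fell, with a median log2 difference of 1.52 (with library totals as the scaling 1 rose and 0 fell), and the rises numbered 0 without heat library 2, 1 without combination library 1, 0 without combination library 2 and 0 without combination library 3. Of phloem markers 0 of 11 tested members rose and 5 fell, with a median log2 difference of -0.81 (with library totals as the scaling 0 rose and 6 fell), and the falls numbered 3 without heat library 1, 3 without heat library 2, 3 without combination library 1 and 3 without combination library 2. SWEET12, a sucrose exporter of the phloem parenchyma, stood at 1675, 951 and 548 in the heat libraries and 165, 33.6 and 21.7 in the combination (-4.24 ± 0.71 (SE), adjusted p = 0.00426). The companion cell transporter SUC2 fell, with a difference of -1.11 in the same units. Of guard cell markers 1 of 13 tested members rose and 3 fell, with a median log2 difference of -0.76 (with library totals as the scaling 0 rose and 9 fell), with the potassium channels GORK (-2.48 ± 0.35 (SE), adjusted p = 0.00338) and KAT1 (-1.98 ± 0.27 (SE), adjusted p = 0.00337) lower and SLAC1 (0.03) not called. As a share of reads guard cell markers took 0.368, 0.364 and 0.277% in the heat libraries and 0.0978, 0.12 and 0.154% in the combination, and phloem markers 0.0928, 0.066 and 0.0421% and 0.0204, 0.0201 and 0.0207%. Of epidermis markers 1 rose and 2 fell of 10, and of xylem markers 1 rose and 2 fell of 9. The median log2 differences of these 2 lists were 0.265 and 0.257 under the deposited scaling. Epidermis markers took 0.445, 0.301 and 0.168% and 0.098, 0.0868 and 0.114% of reads, and xylem markers 0.0118, 0.0137 and 0.0113% and 0.00413, 0.00522 and 0.00678%, so that all 4 of these shares were lower in the combination without overlap. Mesophyll markers took 2.201, 2.29 and 3.003% and 3.21, 2.60 and 3.46%, with overlap. A share also falls when other genes take more of the reads, and those of the combination were concentrated on few genes. In whole leaves this, fewer cells of a type and less RNA per cell cannot be told apart. The part of these markers in other results was not tested.

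Of the 10 largest falls with a gene symbol, 6 were precursor transcripts of small RNAs. TAS1A (AT2G27400), whose transcript is cut by a microRNA to make trans-acting small RNAs, stood at 560.5, 549 and 413 in the heat libraries and 54.6, 0 and 0 in the combination. Its difference was -7.04 ± 1.35 (SE), adjusted p = 0.00602, and control libraries held 323, 349 and 309. TAS1B fell from 221, 168 and 107 to 16.5, 0 and 3.35 (-5.23 ± 0.91 (SE), adjusted p = 0.0047). MIR167d, the precursor of a microRNA aimed at auxin response factors, went from 505, 163 and 85.9 to 9.92, 0 and 5.02 (-5.58 ± 0.94 (SE), adjusted p = 0.00428), and fell in high light alone as well (-5.0 ± 0.34 (SE), adjusted p = 5.62e-05). MIR164b and MIR171c went from 122, 214 and 157 and from 72.0, 146 and 90.62 in heat to 36.4, 1.87 and 1.67 and 4.96, 3.74 and 1.67 in the combination. Both were near 0 in control, with at most 3.94 normalised counts in a library. MIR166b fell, with a difference of -4.51 ± 1.16 (SE), adjusted p = 0.0162 but was not called without heat library 2 (-4.3), combination library 2 (-3.73) and combination library 3 (-3.73). Grouped by product after these falls were seen, 25 of 39 microRNA precursors tested fell and 4 rose, with a median of -2.34, and all 5 TAS precursors tested fell. The 4 that rose were MIR163 (4.08), MIR156h (3.33), MIR172a (1.96) and MIR414 (1.87). The filter on low counts bears on these numbers. MIR164b, MIR171c and MIR166b passed it through their heat libraries, with means of 164, 103 and 68.8 there. No other group mean of these 3 exceeded 13.3. A precursor kept for its heat level can hardly rise, so the count of falls and the median partly reflect the filter. How many of the 39 were kept in this way was not tested. Poly(A)-selected libraries hold the unprocessed precursor, not the small RNA, and precursors are short transcripts with few reads.

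**Figure D4:**
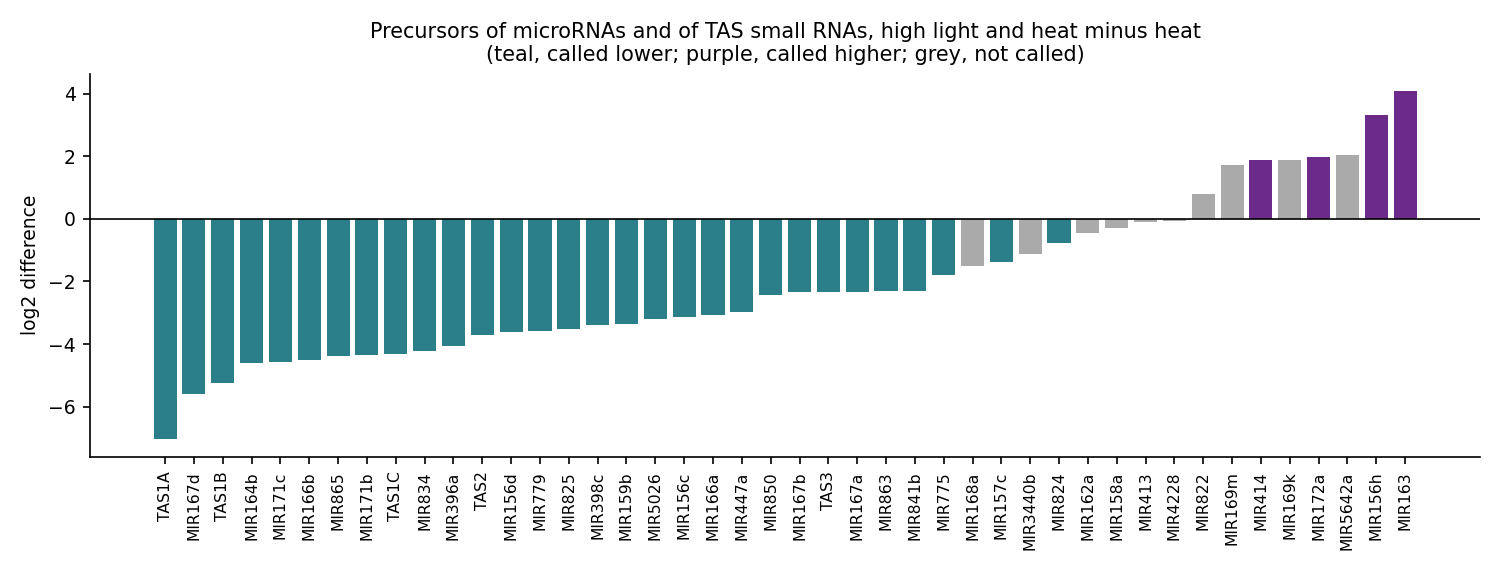
Log2 difference, combination minus heat (vertical axis), of the 44 microRNA and TAS precursor transcripts tested, 1 bar each, sorted; teal bars were called lower, purple bars higher and grey bars neither. The 30 called lower lie between -0.76 and -7.04, and TAS1A is the lowest.

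Light had unlike effects with and without heat. High light alone raised 5166 genes (26.8%) and lowered 5134 (26.6%), and this comparison shares no library with the one above. Of the 3913 genes higher on adding light to heat, 1340 (34.2%) were also higher in high light alone and 942 (24.1%) were lower there. From the other side, the 1340 are 25.9% of the genes that high light alone raised. Of the 3639 genes lower on adding light to heat, 1006 (27.6%) were lower and 893 (24.5%) higher in high light alone. Across the 19309 genes the 2 differences had a Pearson r of 0.0436, a description over genes that are not independent. The test of the difference between the effects, light in hot leaves minus light without heat, called 4443 genes higher (23%) and 4484 lower (23.2%). With library totals as the scaling these were 1813 and 8805.

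**Figure D5:**
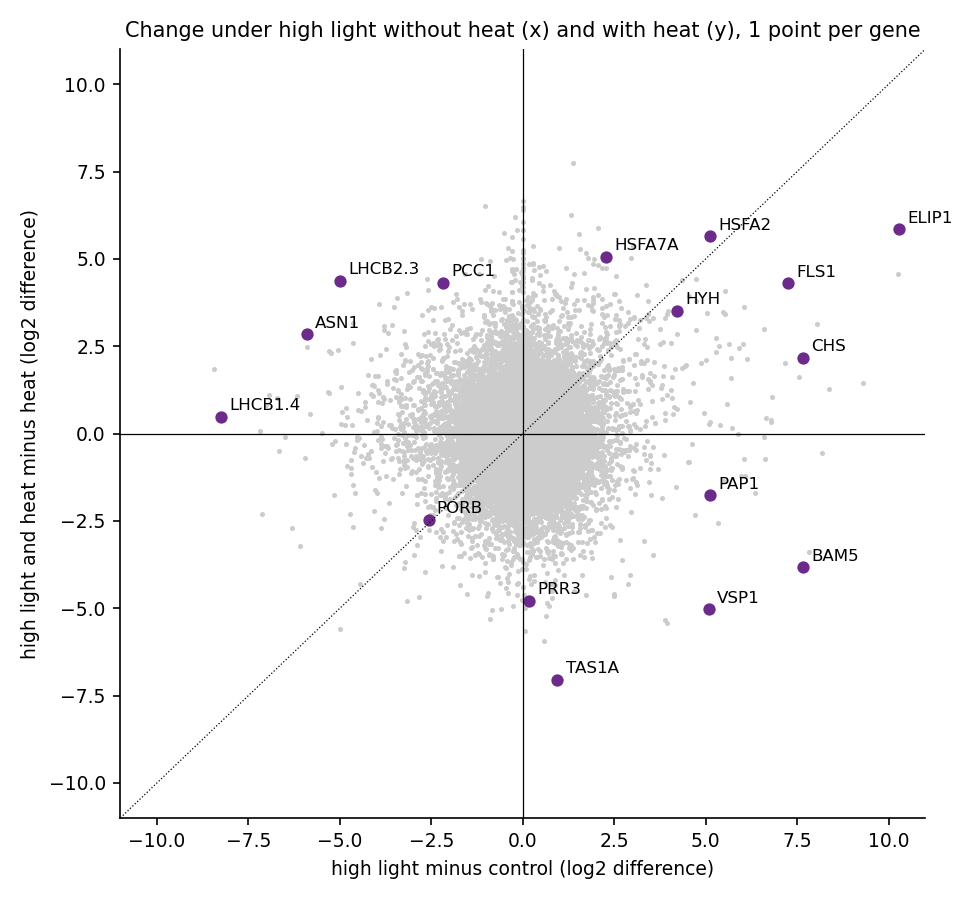
Log2 difference of each tested gene for high light minus control (horizontal axis) and for the combination minus heat (vertical axis), 1 grey point per gene, with named genes in purple; the dotted line marks equal differences. HYH and PORB lie near the line, TT4 (marked CHS), ELIP1 and FLS1 below it on the positive side, VSP1 and BAM5 at lower right and LHCB2.3 and ASN1 at upper left.

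Named genes gave several patterns, described after their values were seen. In one the effects of light were not shown to differ: HYH rose by 4.22 ± 0.29 (SE), adjusted p = 5.77e-05 without heat and 3.52 with it, and the difference of -0.71 ± 0.63 (SE), adjusted p = 0.375 did not pass. For ZAT12 the effects were 3.42 and 3.78, a difference of 0.37 ± 0.88 (SE), adjusted p = 0.753. In another the rise was smaller with heat, as in FLS1 (7.24 and 4.31, difference -2.94 ± 0.73 (SE), adjusted p = 0.00624) and TT4 (7.66 and 2.18, difference -5.48 ± 0.51 (SE), adjusted p = 1.7e-05). In others the directions were opposite. VSP1 rose by 5.08 without heat and fell with it (-5.02), a difference of -10.1 ± 1.54 (SE), adjusted p = 0.000292, and BAM5 did so by 7.67 and -3.83, a difference of -11.5 ± 1.35 (SE), adjusted p = 5.99e-05. LHCB2.3 went the other way, at -5.0 without heat and 4.38 with it (9.38 ± 1.11 (SE), adjusted p = 5.99e-05). Some were called on adding light to heat and not in high light alone: EGY3 stood at -0.49 without heat and 3.85 with it (4.34 ± 0.95 (SE), adjusted p = 0.0029), and GRP7 at -0.03 and -4.77 (-4.73 ± 1.02 (SE), adjusted p = 0.00256). For HSFA2 the effects were 5.13 and 5.66, and their difference of 0.53 ± 2.14 (SE), adjusted p = 0.854 did not pass, although the levels reached were 129, 1383 and 4719 in high light alone and 252386, 457851 and 427106 in the combination. The reverse, a call in high light alone and none on adding light to heat, held for 2933 genes that high light alone raised and 3186 that it lowered. PORA and LHCB1.4 had fallen in high light alone (-8.44 and -8.24), and neither passed on adding light to heat (1.86 ± 0.8 (SE), adjusted p = 0.0942 for PORA, which was called without heat library 3 (2.78), and 0.48 ± 0.53 (SE), adjusted p = 0.487 for LHCB1.4).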

How the data were processed

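RNA of leaves was poly(A)-selected and sequenced in 12 libraries, 3 per group. The submitters' processing notes name FastQC 0.11.7 for read quality, STAR 2.4.0.1 as the aligner, the TAIR10 genome and DESeq2 1.20.0 for normalisation; the counting tool, strand setting and annotation release are not given in the sources used here, so overlapping and antisense genes are uncertain. The deposited signal values are counts that the authors divided by 1 size factor per library. Division by each library's smallest step gave whole reads for 100% of values (within 0.001), and depth limits precision through counting error in genes of few reads. Genes with a mean of at least 10 were kept, 19309 in all. Values were tested as log2(normalised count + 1) with limma 3.58.1 (limma-trend, R 4.3.3), Benjamini-Hochberg adjusted over all genes kept, two-sided, threshold 0.05. The fit used the 6 compared libraries, and all 12 for the difference between light effects. Fold differences on this scale understate changes of low genes. Count tests on recovered reads (edgeR 4.0.16, DESeq2 1.42.0), other scalings, filters and pseudocounts, and each library left out were alternatives.

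The fit over 19309 genes was also run on simulated counts for this comparison, with 200 genes changed. It called 7.5% of 80 genes changed by 1.5-fold, 33.9% of 56 changed 2-fold and 98.4% of 64 changed 4-fold. Of 19109 unchanged genes it called 0.0209%. In the data far more genes were called, 3913 higher and 3639 lower. Whether these percents hold with that many changes, or with the differences among the heat libraries, was not tested.

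Members, lists, tests and alternatives were chosen with earlier results of these data known. Named genes are the 10 largest called rises and falls with a reference symbol, at least 50 normalised counts on average in the higher group, and no overlap of libraries, the 2 called members of each list with the largest difference, 20 fixed genes and the 5 largest differences between light effects per direction. Symbols were matched to RefSeq TAIR10.1; wrong or shared matches were settled from the reference product after the data were seen, as were the HSP20-like list, product families and motifs. Of the list names, 60 matched no locus. Counts of list members are descriptions, with no set test.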

Additional observations from a re-analysis of the deposited data

Results flagged for a closer look

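These results are given because the effect of high light differed between hot leaves and leaves without heat in the test of that difference (limma over 12 libraries, adjusted p under 0.05). The differences counted 4443 genes higher and 4484 lower. The genes listed here come only from the 20 fixed genes and the 5 largest differences between light effects per direction. Other named genes were called too, such as PRR3 (-4.95), TAS1A (-7.99), PUM21 (6.23) and HSFA7B (6.38). In the genes listed, the difference (light effect with heat minus light effect without, log2) was lower than 0 for ELIP1 (-4.45), ELIP2 (-5.69), VSP2 (-9.24), VSP1 (-10.10), PAP1 (-6.87), LOX2 (-2.14), BAM5 (-11.50), TT4 (-5.48), APX1 (-1.59), CSLA01 (-11.21) and TT7 (-8.73). It was above 0 for LHCB2.3 (9.38), ASN1 (8.75), CAB2 (5.20), GOLS1 (2.32), PORA (10.30), LHB1B1 (8.72, the antenna gene LHCB1.4) and PGL1 (8.05).

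CSLA01, a cellulose synthase-like gene, stood at 378, 389 and 261 in high light alone, 158, 5.39 and 3.82 in the heat libraries and 3.31, 0 and 0 in the combination, with heat library 1 far above its group. PGL1 stood at 171, 147 and 197 in control, 0, 0 and 1.77 in high light alone, 12.4, 13.5 and 22.9 in the heat libraries and 36.4, 26.2 and 45.2 in the combination, so its range in the combination lay above that in heat although the difference of 1.11 ± 0.45 (SE), adjusted p = 0.079 did not pass.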

How the results depend on the processing

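The scaling and the libraries moved the counts most. Genes called on adding light to heat, 3913 higher and 3639 lower, became 1098 and 9140 with library totals as the scaling, 1687 and 1560 at an adjusted p under 0.01, and 594 and 611 without both heat library 1 and combination library 2. Leaving out 1 library at a time gave 2101 to 3848 higher and 1896 to 3983 lower; both lowest sets came from leaving out combination library 2 or heat library 2. Of the difference between light effects, 4443 higher and 4484 lower became 1813 and 8805 with library totals and 2837 and 2888 at an adjusted p under 0.01, and 3691 to 4832 higher and 3748 to 5141 lower with 1 library left out. TMM (3609 and 4000), upper-quartile scaling, pseudocounts, filters, the robust variance, edgeR (3780 and 3512), DESeq2 (4382 and 4024) and the fit of all 12 libraries (5388 and 5219) kept the light-on-heat counts within 1.5 times. The sign of 1 named gene turned, NDA2 at -0.0928 with library totals (the scaling lowers every difference). Same-numbered heat and combination libraries did not deviate together (r of -0.07, 0.0465 and 0.0345), and differently numbered ones ranged from -0.29 to 0.187. With 3 libraries per group these values cannot exclude that the numbers mark a pairing. With the replicate number as a block 3375 genes were higher and 3098 lower. Depth limits genes of few reads, such as small RNA precursors.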

Other observations

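Other gene groups, formed by reference product after the data were seen, moved with light in hot leaves, beside 20.3% of all genes higher and 18.8% lower. Of 290 genes for cytosolic ribosomal proteins, 176 rose and 10 fell (median 0.83), and 243 rose and 7 fell in high light alone; with library totals as the scaling the median of all genes is lower by 0.87. Pentatricopeptide repeat proteins, which process organelle RNA, gave more falls in one setting and more rises in the other: 4 of 234 rose and 100 fell (median -1.01) on adding light to heat, and 151 rose and 6 fell in high light alone. Of 48 histone genes 27 rose and 1 fell (median 1.19), and of 17 tubulin genes 12 rose and 1 fell (median 1.27). Cytochrome P450 genes, 127 in all, gave 9 rises and 42 falls. Glutathione S-transferases, which conjugate toxic products, gave 20 rises and 5 falls of 39. Of 265 long non-coding RNAs, 39 rose and 76 fell.

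Of the 10 largest rises with a symbol, 3 have no part in the lists. PUM21, an RNA-binding Pumilio protein, stood at 6.55, 40.4 and 129.7 in the heat libraries and 838, 5079.6 and 1435 in the combination (5.73 ± 0.99 (SE), adjusted p = 0.00452), with at most 2.53 normalised counts in any library without heat. PERK7, a receptor-like kinase, was listed at 0 in 8 libraries, at 0, 0 and 1.91 in the heat libraries and at 16.5, 101 and 51.9 in the combination (5.0 ± 0.79 (SE), adjusted p = 0.00379). It passed the filter on low counts only through the combination, with a mean of 56.4 there and 0.636 in heat. A gene kept in this way can hardly fall, so the place of PERK7 among the largest rises partly reflects the filter. LEA3, a late-embryo protein, went from 23.57, 132 and 1537 to 8148, 6839 and 6232 (5.36 ± 1.18 (SE), adjusted p = 0.00949). 

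Organelle transcripts lay at low shares, as poly(A) selection leaves few of them. Transcripts of the chloroplast genome took 0.0531, 0.0588 and 0.049% of reads in the heat libraries and 0.0422, 0.212 and 0.0274% in the combination, where library 2 stood apart. Of 79 tested, 7 rose and 11 fell, below the 20.3% and 18.8% of all genes tested. The number of rises was 1 without heat library 1, 0 without heat library 2, 4 without heat library 3, 4 without combination library 2 and 11 without combination library 3. ATCG00080 stood at 845, 1028 and 590.5 in the heat libraries and 69.4, 57.9 and 11.7 in the combination (-4.42 ± 0.6 (SE), adjusted p = 0.00337).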
